A study of Homo sapiens with 6 samples.

Results

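The respiratory chain was followed through the RNA of its subunits in 2 human pancreatic cancer cell lines. Rows of the deposited gene table were taken where the gene name matched the subunit names of complexes I to V and the mean over the 6 libraries was at least 1 FPKM (fragments scaled by transcript length and by the number mapped in the library). Of 33097 rows, 131 matched by name and 100 passed this level. They hold 13 subunits encoded by mitochondrial DNA and 87 nuclear rows, of which 79 are genes and 8 are annotated pseudogenes. The libraries came from CFPAC cells and from KP3 cells, each after NEK7 siRNA, NEK6 siRNA or control siRNA. NEK6 and NEK7 are related serine/threonine kinases, and NEK7 is also known as a partner of the NLRP3 inflammasome. There was 1 library for each line and siRNA, and the control libraries carry WT as their treatment tag. RNA was selected with oligo(dT) beads. No labels speak of separate cultures, so each p-value measures only the spread between these 6 libraries.

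The respiratory chain passes electrons from NADH (complex I) and succinate (complex II) through ubiquinone to complex III, then through cytochrome c to complex IV, which reduces oxygen. Complexes I, III and IV pump protons across the inner mitochondrial membrane, and complex V, the ATP synthase, lets them return to make ATP. Complex II is encoded by nuclear genes alone, while the other complexes join a mitochondrially encoded core to nuclear subunits. Mitochondrial subunits are cut from long polycistronic transcripts, and most of the mature RNAs are polyadenylated, which lets oligo(dT) beads hold them. The mature RNA of MT-ND6 is known to lack a poly(A) tail, so its level after oligo(dT) selection is less certain.

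Short stretches of sequence are shown for some of the members on which the results turn. MT-ND4L and MT-ND4 share 7 bases and are known to be carried by 1 mature RNA, and they are the pair that stood apart from the other mitochondrial subunits between the lines. The last 30 bases of MT-ND4L (chrMT:10737-10766, plus strand, GRCh38) and the first 30 bases of MT-ND4 (chrMT:10760-10789, plus strand) follow, with the shared bases in capitals.
MT-ND4L: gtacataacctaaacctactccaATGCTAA
MT-ND4: ATGCTAAaactaatcgtcccaacaattata
The factors best known for nuclear subunit genes include nuclear respiratory factor 1 and GABP (also called NRF2), and their core motifs were searched in RefSeq promoters. The windows ran from 250 bases before to 50 bases after each gene start on GRCh38.p14, and both strands were read. The letters GCGC, any 2 bases and GCGC again (nuclear respiratory factor 1) stood in 17 of 65 matched nuclear genes (26.2%), against 8.32% of the 35116 promoters in the table. The letters CCGGAAG (GABP) stood in 20 of the 65 (30.8%), against 10.3% of all promoters. The motifs were counted separately, overlapping or not, and 34 of the 65 promoters (52.3%) held at least 1 of them, against 17.1% of all promoters. The 65 are 1 promoter for each gene, while the comparison took every promoter entry, without a limit to expressed genes. The shares are thus from unlike sets. The windows below are from complex II genes, whose subunits moved apart, and from UQCRQ and COX4I1, all genes with a match. NDUFS6, NDUFS8, NDUFB2, NDUFB6, UQCRC2, ATP5MC1 and ATP5MC2, also named below, held neither motif. Promoters were found for 65 of the 79 nuclear genes, and SDHC was not among them. Capitals mark the motif, read as CTTCCGG where it lies on the other strand.
SDHD, nuclear respiratory factor 1 motif: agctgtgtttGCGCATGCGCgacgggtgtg
SDHD, GABP motif: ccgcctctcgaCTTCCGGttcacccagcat
SDHA, nuclear respiratory factor 1 motif: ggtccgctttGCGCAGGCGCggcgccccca
SDHB, GABP motif: cacccgggaaaCCGGAAGccgcctcccact
UQCRQ, GABP motif: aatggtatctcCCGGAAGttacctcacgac
COX4I1, GABP motif: ggccttgctctCTTCCGGtcgcgggacacc
They lie at chr11:112086753-112086782 (plus strand) and chr11:112086785-112086814 (plus strand) for SDHD, chr5:218144-218173 (plus strand) for SDHA, chr1:17054142-17054171 (minus strand) for SDHB, chr5:132866577-132866606 (plus strand) for UQCRQ and chr16:85799686-85799715 (plus strand) for COX4I1. A match is a description of letters and not a measured site.

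Libraries held between 59478910 and 66067379 counts. The kinase aimed at was checked first. After NEK7 siRNA, NEK7 was at 16.2% of its control level in CFPAC cells and at 39.5% in KP3 cells, and after NEK6 siRNA, NEK6 was at 26.9% and 32.8%. The labelled epithelial origin was checked on KRT19, which had 335, 396 and 393 FPKM in CFPAC cells after NEK7, NEK6 and control siRNA, and 729, 644 and 715 FPKM in KP3 cells, while the duct keratin KRT7 was at most 1.67 FPKM in any library. The summed epithelial markers had 541 to 641 FPKM in CFPAC libraries and 1249 to 1366 FPKM in KP3 libraries, and the endothelial markers summed to at most 0.221 FPKM. The summed fibroblast markers had 11.3 to 14.2 FPKM in CFPAC libraries and 3.58 to 4.17 FPKM in KP3 libraries. Most of this gap lay in DCN, at 9.56, 7.07 and 8.19 FPKM in CFPAC cells and at most 0.189 FPKM in KP3 cells. COL1A1, COL1A2 and THY1 overlapped between the lines, and PDGFRB, higher in CFPAC cells, was at most 0.288 FPKM. The immune markers summed to 47.6 to 76.0 FPKM in CFPAC libraries and to 69.1 to 77.2 FPKM in KP3 libraries, nearly all of it CD68, with the leukocyte gene PTPRC at most at 0.042 FPKM. The part of these differences in the results below was not tested. In bulk RNA, fewer mitochondria or less RNA per mitochondrion cannot be told apart.

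Mitochondrially encoded subunits took 10.9%, 10.8% and 12.5% of all counts in CFPAC cells after NEK7, NEK6 and control siRNA, and 7.25%, 8.92% and 7.83% in KP3 cells. The 87 nuclear rows took 0.834%, 0.927% and 0.948% in CFPAC cells and 0.966%, 1.07% and 1.02% in KP3 cells. Per length, mean levels of the 13 mitochondrial subunits ran from 1800 FPKM (MT-ATP6, the proton-channel subunit a of complex V) to 21982 FPKM (MT-ATP8). MT-ATP8 shares 46 bases with MT-ATP6, so reads there cannot be assigned with certainty. In CFPAC cells with control siRNA it stood at 13.2 times MT-ATP6 in FPKM, where the counts were 485650 and 121084. The gap between these 2 rows in FPKM thus rests partly on the scaling by length. The 79 nuclear genes ran from 3.24 to 453 FPKM with a median of 34.3 FPKM. COX8A, a small complex IV subunit, was highest at 453 FPKM. ATP5F1B, the catalytic beta subunit of complex V, followed at 296 FPKM and NDUFA1, an accessory complex I subunit, at 294 FPKM. This order also rests partly on the scaling by length. In CFPAC cells with control siRNA, counts were 14217 for COX8A, 40276 for ATP5F1B and 9908 for NDUFA1. ATP5F1A, at 35.9 FPKM there, had 27278 counts. Just inside the threshold stood the pseudogene rows COX5BP6, ATP5F1AP8 and ATP5F1AP10 at 1.04, 1.299 and 1.59 FPKM, and just outside it UQCRBP1, ATP5F1AP1 and ATP5F1AP7 at 0.978, 0.899 and 0.695 FPKM. NDUFA4 is grouped with complex I by its name, although it is known as a complex IV subunit, and ATP5IF1 is an inhibitor of complex V rather than a subunit.

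The lines were compared first, with the 3 siRNA conditions of a line as its libraries. In CFPAC cells most mitochondrially encoded subunits were higher than in KP3 cells, by a median of 1.98-fold, while nuclear subunits moved both ways. By edgeR's quasi-likelihood test, 46 of the 100 members passed an adjusted p of 0.05, 21 higher and 25 lower in CFPAC cells, against 56.4% of all 14582 genes tested (29.3% higher and 27.1% lower). Among the 13 mitochondrial subunits 11 were higher and 1 was lower, with a median log2 fold change of 0.99. DESeq2 called 28 members higher and 31 lower, against 62.5% of all genes, and 56 members were past an unadjusted p of 0.05 by edgeR, against 62.3%. Among the 87 nuclear rows 10 were higher, 24 were lower and 53 did not pass, with a median of -0.10, and the median over all genes tested was -0.00. All 13 mitochondrial subunits had values that did not overlap between the lines, against 64.2% of all genes, 11 with every CFPAC library higher (31.2% of all genes) and 2 with every KP3 library higher (33%).

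MT-CO3, a core subunit of complex IV, had 13093, 12333 and 13733 FPKM in CFPAC cells after NEK7, NEK6 and control siRNA, and 6355, 6137 and 6214 FPKM in KP3 cells. MT-CO1, the catalytic subunit that holds the oxygen-reducing centre, had 16999, 16732 and 18810 FPKM in CFPAC cells and 8575, 10080 and 8750 FPKM in KP3 cells. Every CFPAC library was above every KP3 library for both, and the log2 fold changes were 1.11 ± 0.09 (SE, edgeR adjusted p = 0.000734) and 0.99 ± 0.11 (adjusted p = 0.00186). MT-CO2, which takes electrons from cytochrome c, differed less, at 9945, 9786 and 11489 FPKM in CFPAC cells and 7708, 8645 and 8047 FPKM in KP3 cells. Its log2 fold change was 0.40 ± 0.11 (edgeR adjusted p = 0.0268), and the call was lost with no filter on FPKM and in 4 of 6 fits that left out 1 library.

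MT-CYB, the cytochrome b of complex III, had 4704, 4550 and 5654 FPKM in CFPAC cells and 2313, 2628 and 2589 FPKM in KP3 cells. The lines did not overlap, and the log2 fold change was 1.03 ± 0.11 (SE, edgeR adjusted p = 0.00142). For complex V, MT-ATP6 had 2549, 2186 and 2553 FPKM in CFPAC cells and 1101, 1291 and 1123 FPKM in KP3 cells, and MT-ATP8 had 28573, 24607 and 33685 FPKM in CFPAC cells and 15095, 14210 and 15725 FPKM in KP3 cells. Both were higher in every CFPAC library, by log2 fold changes of 1.10 ± 0.13 and 0.98 ± 0.10.

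Complex I was the exception among the mitochondrial groups. MT-ND3 had 4148, 4621 and 5904 FPKM in CFPAC cells and 2049, 2470 and 2078 FPKM in KP3 cells, a log2 fold change of 1.19 ± 0.15 (SE, edgeR adjusted p = 0.00243). MT-ND6, the 1 subunit of the 13 read from the other strand, had 4597, 5213 and 6076 FPKM in CFPAC cells and 2397, 3169 and 2372 FPKM in KP3 cells, a log2 fold change of 1.05 ± 0.15. The labels do not state whether reads were counted by strand, so RNA of the opposite strand cannot be set apart in the MT-ND6 row. The rows of MT-ND3 and MT-ND6, with MT-ND1, MT-ND2 and MT-ND5 (log2 fold changes 0.99, 0.54 and 0.89), were higher in CFPAC cells. The call was lost in 3 of 6 fits that left out 1 library for MT-ND1, and in 2 of 6 for MT-ND2 and for MT-ND5. MT-ND4 went the other way, with 9296, 9148 and 11133 FPKM in CFPAC cells against 11548, 15184 and 13613 FPKM in KP3 cells. Its neighbour MT-ND4L had 8720, 8837 and 9829 FPKM in CFPAC cells and 10643, 15648 and 11750 FPKM in KP3 cells. For both, every KP3 library was above every CFPAC library. The log2 fold change was -0.40 ± 0.12 for MT-ND4 (SE, edgeR adjusted p = 0.0439), a call that was lost with no filter, with a mean FPKM of at least 5 and in all 6 fits that left out 1 library (adjusted p between 0.0647 and 0.198). For MT-ND4L it was -0.41 ± 0.14 (edgeR adjusted p = 0.0612), which passed with DESeq2 and with limma. The ratio of MT-CO1 to MT-ND4 within a library, which does not depend on the scaling between libraries, was 1.83, 1.83 and 1.69 in CFPAC cells and 0.743, 0.664 and 0.643 in KP3 cells.

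**Figure D1:**
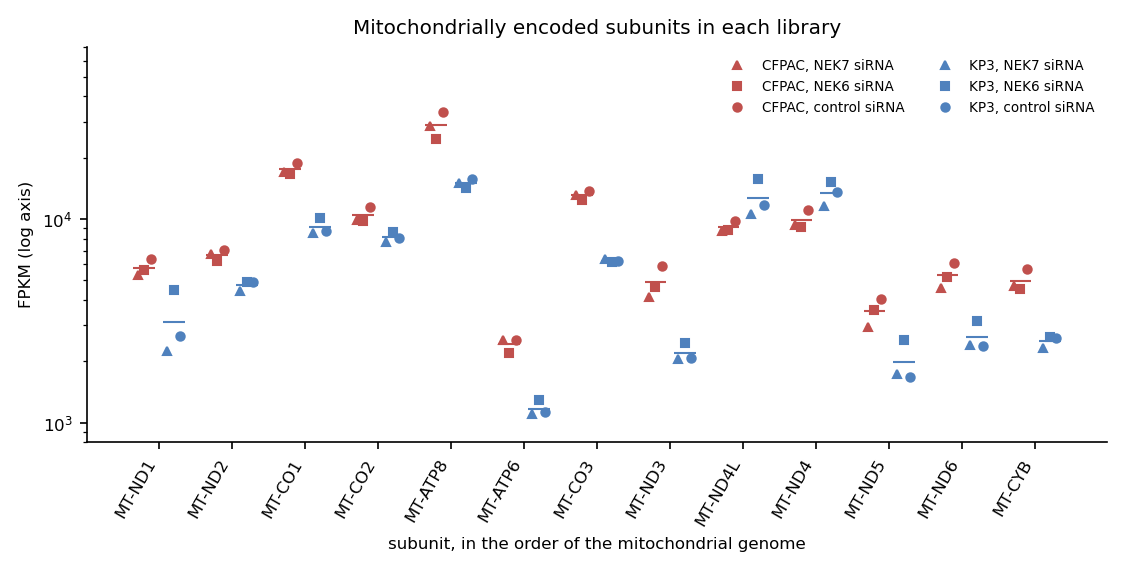
FPKM of the 13 mitochondrially encoded subunits on a log axis, in genome order. CFPAC libraries are red at the left of each pair and KP3 libraries blue, symbols give the siRNA and bars the mean of 3 libraries. All subunits but MT-ND4L and MT-ND4 lie higher in the CFPAC libraries.

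The 2 mitochondrial rRNAs, MT-RNR1 and MT-RNR2, come from the same strand as most of these subunits and lack a protein product. Both had log2 fold changes of 0.21 between the lines, and neither passed edgeR's test. Of 28 tested genes of mitochondrial transcription and RNA handling, 11 were higher and 4 lower in CFPAC cells, against 29.3% and 27.1% of all genes. Their median log2 fold change was 0.32. PNPT1, which encodes the mitochondrial polynucleotide phosphorylase, was higher by 2.32, FASTKD5, known in the processing of mitochondrial RNA, by 1.52 and MTERF1, a mitochondrial transcription termination factor, by 1.43. TFAM, which packages and transcribes mitochondrial DNA, was higher by 0.52, while POLG2, a subunit of the mitochondrial DNA polymerase, was lower at -1.24 and TFB1M, an rRNA methyltransferase, at -1.08.

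Nuclear complex I genes split evenly, with 6 higher, 7 lower and 24 not passing out of 37, and a median log2 fold change of 0.01. For this count and those of the complexes below, the shares over all genes were 29.3% higher and 27.1% lower. NDUFB2, an accessory subunit of the membrane arm, had 13.6, 15.6 and 15.1 FPKM in CFPAC cells after NEK7, NEK6 and control siRNA, and 5.58, 8.65 and 9.35 FPKM in KP3 cells. It was higher in CFPAC cells by a log2 fold change of 0.99 ± 0.14 (SE, edgeR adjusted p = 0.00396), and NDUFB6 and NDUFA11, also accessory subunits, were higher by 0.76 and 0.61. The NDUFA11 call was lost in 3 of 6 fits that left out 1 library. NDUFS5 and NDUFS4, accessory subunits, were lower at -0.63 each, NDUFS4 without a call in 4 of the 6 fits that left out 1 library.

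All 4 complex II genes passed the test, in opposite directions. SDHA, the flavoprotein that oxidises succinate, had 33.5, 31.2 and 30.5 FPKM in CFPAC cells and 21.8, 20.5 and 21.5 FPKM in KP3 cells, a log2 fold change of 0.62 ± 0.09 (SE, edgeR adjusted p = 0.00344). The table also lists the copies SDHAP1, SDHAP2 and SDHAP3 with up to 1777 counts in a library, so some reads of SDHA may have been split. The iron-sulfur subunit SDHB was lower in CFPAC cells at -0.38 ± 0.10 and the membrane anchor SDHC at -0.44 ± 0.11, with no overlap between the lines for either. SDHD, the other anchor, was higher by 0.43 ± 0.10 once siRNA was in the fit, and its lines overlapped because NEK6 siRNA libraries were low in both. The summed FPKM of the 4 genes was 136 ± 12.8 in CFPAC cells and 132 ± 17.3 in KP3 cells (SD, n = 3 each, exact permutation p = 0.7).

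In complex III, UQCRQ, a small subunit that contacts cytochrome b, had 56.1, 64.1 and 69.2 FPKM in CFPAC cells and 24.2, 26.8 and 25.0 FPKM in KP3 cells. Its log2 fold change of 1.36 ± 0.10 (SE, edgeR adjusted p = 0.000623) was the highest of the nuclear rows in the main edgeR fit. UQCRC2, a core protein of the matrix side, had 44.1, 45.5 and 34.9 FPKM in CFPAC cells and 78.9, 81.2 and 76.8 FPKM in KP3 cells, a log2 fold change of -0.89 ± 0.10 (adjusted p = 0.00199). Both genes kept their lines apart in every library, one in each direction, and of the 9 nuclear complex III genes 1 was higher and 3 were lower. In complex IV, none of 11 nuclear genes was higher and 2 were lower in CFPAC cells by edgeR, with 0 higher and 2 lower at an unadjusted p under 0.05. The lower ones were COX8A, with 352, 361 and 413 FPKM in CFPAC cells against 525, 514 and 554.9 FPKM in KP3 cells, and COX4I1, at -0.31 ± 0.09.

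In complex V, 1 nuclear gene was higher, 8 were lower and 9 did not pass out of 18, with a median log2 fold change of -0.22. ATP5MC1, ATP5MC2 and ATP5MC3 encode the same mature subunit c of the rotor ring from different genes. ATP5MC2 had 22.0, 24.9 and 22.5 FPKM in CFPAC cells and 52.2, 45.8 and 46.9 FPKM in KP3 cells, a log2 fold change of -1.02 ± 0.11 (SE, edgeR adjusted p = 0.00167). ATP5MC1 was lower at -0.70 ± 0.11 and ATP5MC3 higher by 0.59 ± 0.09. The 3 genes together had 63.7, 73.4 and 73.7 FPKM in CFPAC cells and 95.4, 91.3 and 93.5 FPKM in KP3 cells. ATP5PO, the stalk subunit that confers oligomycin sensitivity, had 22.8, 23.9 and 32.4 FPKM in CFPAC cells and 44.6, 44.2 and 50.7 FPKM in KP3 cells, and ATP5ME, the subunit e of the membrane part, was lower at -0.74 ± 0.18, a call lost in 4 of 6 fits that left out 1 library. The log2 fold change of ATP5PO was -0.79 ± 0.11 (edgeR adjusted p = 0.00322). Of the assembly factors of complex V, ATPAF1 and ATPAF2 were lower at -1.46 and -1.65, and TMEM70 was higher by 0.63.

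**Figure D2:**
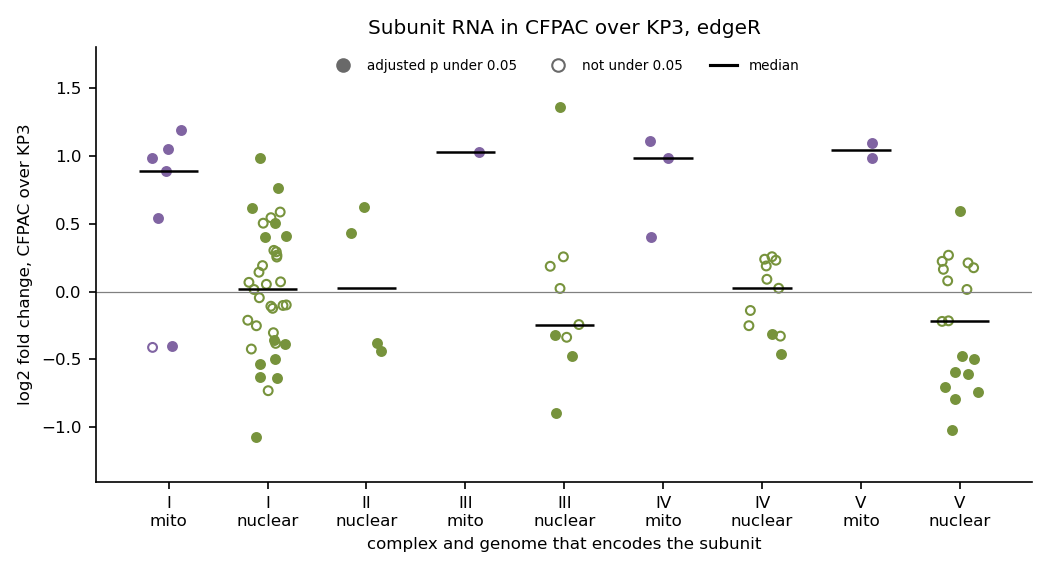
edgeR log2 fold change of CFPAC over KP3 for the 13 mitochondrial subunits (purple) and the 79 nuclear genes (green) by complex, 3 libraries a line. Filled points passed an adjusted p of 0.05 and bars are medians, and the 8 pseudogene rows are not drawn. MT-ND4 and MT-ND4L lie below 0 and the other 11 mitochondrial subunits between 0.40 and 1.19, and the nuclear groups lie on both sides of 0.

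Pseudogene rows gave the most extreme nuclear values. ATP5F1AP8 had 0, 5 and 1 counts in CFPAC cells and 221, 284 and 249 counts in KP3 cells, and ATP5F1AP10 had 3, 14 and 0 counts in CFPAC cells and 429, 336 and 381 counts in KP3 cells. Both entered the list through KP3 cells alone, so their difference is partly fixed by the threshold. Their parent ATP5F1A, the alpha subunit of complex V, had 43.0, 39.5 and 35.9 FPKM in CFPAC cells and 35.7, 34.2 and 34.5 FPKM in KP3 cells and did not pass the test (log2 fold change 0.22 ± 0.09, edgeR adjusted p = 0.0937). Reads of a gene and its processed copies can be split between them, which leaves these rows uncertain. COX5BP7, COX5BP6 and ATP5MC2P4 had log2 fold changes of -2.06, -1.92 and -1.21 and did not pass edgeR's test, while DESeq2 and limma called COX5BP7.

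The summed FPKM of the mitochondrial subunits over that of the nuclear rows was 34.7, 29.9 and 33.2 in CFPAC cells after NEK7, NEK6 and control siRNA, and 18.8, 19.7 and 18.7 in KP3 cells. The size of the ratio depends on the unit. On the log2 scale the FPKM ratio was 5.12, 4.90 and 5.05 in CFPAC cells and 4.23, 4.30 and 4.23 in KP3 cells. From summed counts it was 3.71, 3.54 and 3.72 in CFPAC cells and 2.91, 3.06 and 2.94 in KP3 cells. The FPKM ratio averaged 32.6 ± 2.48 in CFPAC cells and 19.1 ± 0.541 in KP3 cells (SD, n = 3 each), a 1.71-fold difference. All 3 CFPAC libraries lay above all 3 KP3 libraries, and the two-sided exact permutation test gave p = 0.1, the smallest that 3 libraries against 3 allow (0.143 after Benjamini-Hochberg adjustment over 10 sums and ratios). By complex, the mitochondrial sums were 1.97-fold higher for complex III, 1.74-fold for complex IV and 1.93-fold for complex V, each with exact p = 0.1, and 1.11-fold for complex I, where the lines overlapped (exact p = 0.4). The nuclear FPKM sums of complexes III, IV and V were lower in every CFPAC library than in every KP3 library. The log2 differences were -0.17, -0.21 and -0.34 (exact permutation p = 0.1 each). The highest CFPAC and lowest KP3 sums were 427.0 and 428.3 FPKM for complex III and 1099.7 and 1100.7 FPKM for complex IV. Of these complex IV sums, COX8A made up 413 and 525 FPKM. The lines overlapped by geometric mean FPKM for both complexes, and by summed counts scaled to the library total for complex IV. For complex V they did not overlap in any of these units.

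**Figure D3:**
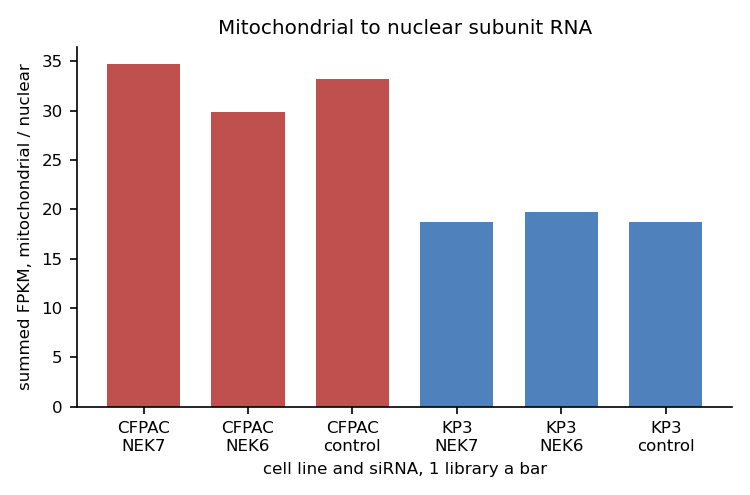
Summed FPKM of the mitochondrial subunits divided by that of the nuclear rows, 1 bar for each library. The 3 CFPAC bars stand between 29.9 and 34.7 and the 3 KP3 bars between 18.7 and 19.7.

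Other genes of the pathway were also called between the lines in both directions. Over all genes tested, 29.3% were called higher and 27.1% lower in CFPAC cells. Of the complex IV assembly factors tested, 3 of 23 were higher and 9 lower, with SURF1 at 0.99, SCO1 at -0.90 and CMC2 at -0.92. Complex I assembly factors had 6 higher and 4 lower of 18, the largest change being DMAC1 at -1.45. In complex II assembly, SDHAF3 was higher by 1.37 and SDHAF4 lower at -1.76 among 4 factors, and in complex III assembly UQCC3 was higher by 0.53 and TTC19 lower at -0.65 among 6. Of 19 genes of electron carriers, 4 were higher and 7 lower, with PDSS1, a ubiquinone side-chain enzyme, at 1.53, CYCS, which encodes cytochrome c, at 1.05 and the flavoprotein gene ETFA at -1.21. Citric acid cycle genes had 4 higher and 4 lower of 13, with SUCLG2, a subunit of succinyl-CoA ligase, at -2.16 and FH, which encodes fumarase, at -1.08. Among 8 tested regulators of respiration genes, NRF1, which encodes nuclear respiratory factor 1, was higher by 0.87 and PPRC1, a coactivator, by 0.62, while GABPA, the DNA-binding subunit of GABP, was lower at -0.52.

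NEK7 siRNA was then set against control siRNA. By edgeR no gene of the 14582 and no member passed an adjusted p of 0.05 (0% called). At an unadjusted p under 0.05, 11 of the 100 members were past it, 1 higher and 10 lower, against 9.41% of all genes. DESeq2 called 4 members, all lower, against 2.53% of all genes, and limma called none. The median log2 fold change was -0.19 for the mitochondrial and for the nuclear rows, and 0.00 for all genes. Within a line, on the log2(FPKM + 1) scale and without a test, 52 of 100 members were lower in both lines, against 25.6% of all genes, and 8 were at least 1.2-fold lower in both, against 4.92%. At least 1.2-fold higher in both were 2 members, ATP5F1D among them, against 6.41% of all genes.

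The 4 members that DESeq2 called sit in complexes I, IV and V. COX4I1, the subunit 4 of complex IV known for binding ATP, had 22.4, 30.3 and 31.2 FPKM in CFPAC cells after NEK7, NEK6 and control siRNA, and 27.5, 40.3 and 39.9 FPKM in KP3 cells. The NEK7 siRNA library was the lowest of its line in both, at 71.8% and 68.9% of control, and the log2 fold change was -0.54 ± 0.11 (SE, edgeR adjusted p = 0.473, DESeq2 adjusted p = 0.00012). COX4I1 overlaps EMC8 on the other strand, and whether reads were counted by strand is not stated in the labels. COX5A, its neighbour in the assembly of complex IV, had 46.2, 54.0 and 59.5 FPKM in CFPAC cells and 39.0, 51.5 and 47.5 FPKM in KP3 cells, again lowest after NEK7 siRNA, and passed neither test (-0.36 ± 0.12, edgeR adjusted p = 0.51). NDUFS8, a core iron-sulfur subunit of complex I, had 9.80, 11.5 and 13.5 FPKM in CFPAC cells and 8.34, 12.97 and 13.3 FPKM in KP3 cells. Its log2 fold change was -0.59 ± 0.14 (edgeR adjusted p = 0.492, DESeq2 adjusted p = 0.0303).

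NDUFS6, an accessory complex I subunit with a zinc site, had 52.8, 51.0 and 69.6 FPKM in CFPAC cells and 42.0, 44.0 and 60.7 FPKM in KP3 cells. Both knockdown libraries were below the control library in both lines. The log2 fold change was -0.50 ± 0.12 with NEK7 siRNA (SE, edgeR adjusted p = 0.492, DESeq2 adjusted p = 0.0114) and -0.45 ± 0.12 with NEK6 siRNA (edgeR adjusted p = 0.572, DESeq2 adjusted p = 0.0346), 2 contrasts that share their control libraries. ATP5F1B had 206, 229 and 258 FPKM in CFPAC cells and 311, 382 and 387 FPKM in KP3 cells, and its log2 fold change with NEK7 siRNA was -0.35 ± 0.11 (edgeR adjusted p = 0.507, DESeq2 adjusted p = 0.0487). Against this direction, ATP5F1D, the delta subunit of the central stalk of complex V, had 14.3, 13.4 and 8.15 FPKM in CFPAC cells and 15.7, 8.76 and 10.5 FPKM in KP3 cells. It was at 175% and 149% of control with NEK7 siRNA and passed neither test (0.65 ± 0.26, edgeR adjusted p = 0.541, between 0.37 and 0.97 with 1 library left out). ATP5PB, a stalk subunit of complex V, had a log2 fold change of 0.22 with NEK7 siRNA. ATP5ME and COX7A2L had log2 fold changes of -0.59 and -0.89 with NEK7 siRNA, and neither passed a test. Leaving out 1 library put ATP5ME between -0.91 and -0.24, and COX7A2L between -1.69 and 0.30.

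In CFPAC cells all 13 mitochondrial subunits were lower with NEK7 siRNA, by a median difference of -0.24 in log2(FPKM + 1), and in KP3 cells 10 were, by a median of -0.06. The nuclear rows had the same pair of medians, -0.24 and -0.06. By edgeR, the median log2 fold change of the mitochondrial subunits was -0.022 without the CFPAC control library and -0.34 without the KP3 control library. The summed FPKM of the mitochondrial subunits was 117646 with NEK7 siRNA and 136315 with control siRNA in CFPAC cells, and 76216 and 81472 in KP3 cells. That of the nuclear rows was 3388 with NEK7 siRNA and 4101 with control siRNA in CFPAC cells, and 4061 and 4345 in KP3 cells. Both sums were lower with NEK7 siRNA in both lines, and their ratio was 34.7 against 33.2 in CFPAC cells and 18.8 against 18.7 in KP3 cells. Across the 79 nuclear genes the CFPAC difference went with the length implied by counts per FPKM (Pearson 0.33, Spearman 0.36, across genes of the same 2 libraries), as it did less across all 14582 genes (0.17 and 0.20). In KP3 cells the same 79 genes gave a Pearson value of 0.024 and a Spearman value of 0.11. With NEK6 siRNA, against the same control libraries, these values were 0.30 and 0.42 in CFPAC cells and -0.16 and -0.18 in KP3 cells. The part of length in these results was not tested.

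NEK6 siRNA gave no call by edgeR either (0% called). At an unadjusted p under 0.05 there were 5 members, 1 higher and 4 lower, against 7.36% of all genes, and DESeq2 called 2 members, both lower, against 1.98% of all genes, while limma called none. The median log2 fold change was -0.06 for the mitochondrial subunits and 0.03 for the nuclear rows, and leaving out 1 library put them between -0.19 and 0.15 and between -0.069 and 0.098, so neither direction held. SDHD, which anchors complex II in the membrane and lies at chr11:112086824-112095794 on the plus strand, stood out. It had 60.9, 33.3 and 60.5 FPKM in CFPAC cells after NEK7, NEK6 and control siRNA, and 47.8, 23.2 and 49.1 FPKM in KP3 cells. The NEK6 siRNA libraries were the lowest in both lines, at 55.1% and 47.2% of control, and did not overlap with the other 4 libraries. The log2 fold change was -0.97 ± 0.12 with NEK6 siRNA (SE, edgeR adjusted p = 0.202, DESeq2 adjusted p = 2.7e-10), and between -1.07 and -0.87 when 1 library was left out. These values rest on 12808, 7018 and 11751 counts in CFPAC cells and 10477, 4651 and 10506 counts in KP3 cells, and the copies SDHDP2 and SDHDP6 held at most 191 counts in a library. No other complex II gene passed a test with NEK6 siRNA: SDHA had a log2 fold change of -0.02, SDHB of 0.23 and SDHC of -0.12.

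**Figure D4:**
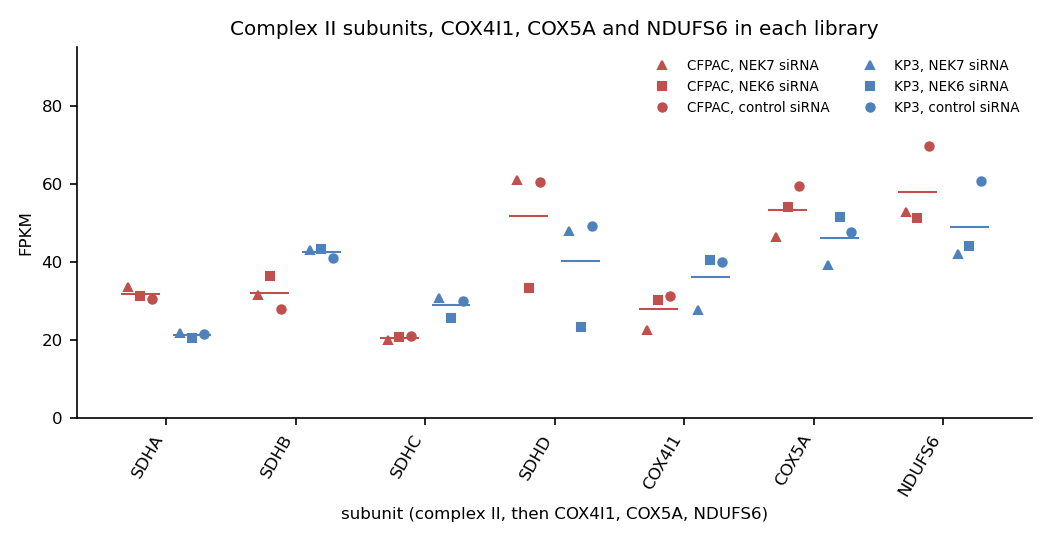
FPKM of the 4 complex II genes, COX4I1, COX5A and NDUFS6 in each library, with CFPAC in red left of KP3 in blue, symbols for the siRNA and bars at the mean of 3 libraries. The NEK6 siRNA squares of SDHD stand at 33.3 and 23.2 FPKM, below its other 4 libraries, and the NEK7 siRNA triangles of COX4I1 are the lowest of each line.

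The mitochondrial subunits did not move alike in the lines with NEK6 siRNA. In CFPAC cells 13 of 13 were lower, by a median difference of -0.22 in log2(FPKM + 1), and in KP3 cells 2 were lower and 11 higher, with a median of 0.20. Within a line, the NEK7 and NEK6 siRNA differences share 1 control library and are not independent. In the CFPAC control library mitochondrial subunits took 12.5% of counts, against 10.9% with NEK7 siRNA and 10.8% with NEK6 siRNA. The 7 mitochondrial complex I subunits were all lower in CFPAC cells and all higher in KP3 cells. MT-ND1, the subunit at the ubiquinone end of the membrane arm, had 5590 FPKM with NEK6 siRNA and 6340 FPKM with control siRNA in CFPAC cells, and 4457 FPKM with NEK6 siRNA and 2659 FPKM with control siRNA in KP3 cells. MT-ATP8 was lower with NEK6 siRNA in both lines, by -0.45 and -0.15. With 1 library for each condition the difference between the lines was not tested. Nuclear rows had medians of -0.05 in CFPAC cells and 0.01 in KP3 cells, and 4 members were at least 1.2-fold lower in both lines (NDUFA2, NDUFA7, NDUFS6 and SDHD), against 4.93% of all genes, while 0 were at least 1.2-fold higher in both, against 3.93%. NDUFA2, an accessory complex I subunit, had a log2 fold change of -0.45 ± 0.14 (SE, edgeR adjusted p = 0.643), and NDUFS4 and COX7B had the highest of the nuclear genes in that fit at 0.41 and 0.33, with ranges of 0.16 to 0.65 and 0.051 to 0.58 when 1 library was left out.

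**Figure D5:**
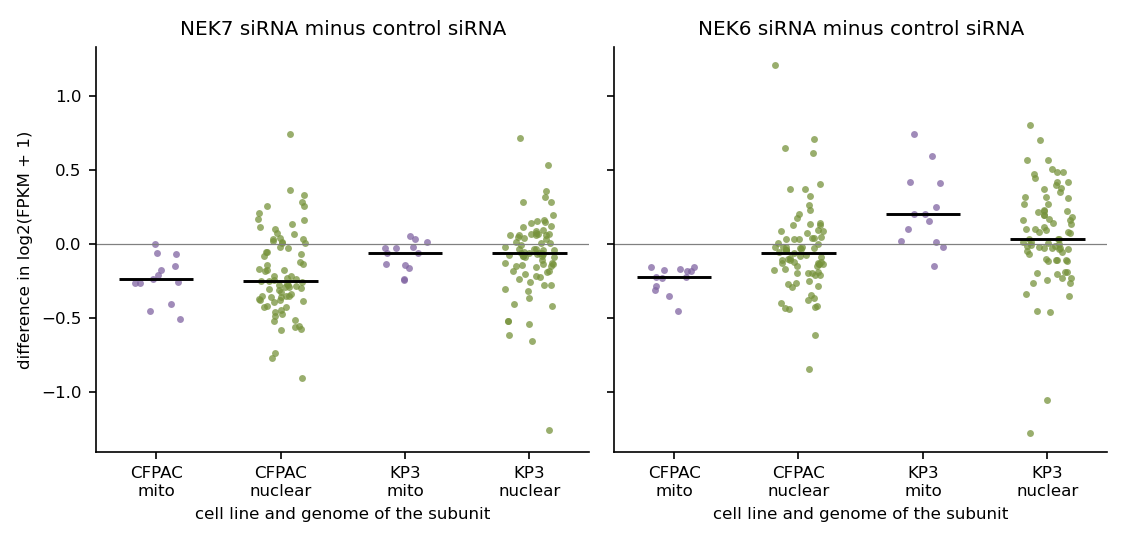
Difference in log2(FPKM + 1) between an siRNA library and the control library of the same line, for the 13 mitochondrial subunits (purple) and 79 nuclear genes (green), with bars at the median. With NEK7 siRNA the CFPAC medians lie near -0.25 and the KP3 medians at -0.06, and with NEK6 siRNA the mitochondrial medians are -0.22 in CFPAC cells and 0.20 in KP3 cells.

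NEK7 siRNA set against NEK6 siRNA gave no edgeR call (0% called), 14 members at an unadjusted p under 0.05 against 9.85% of all genes, and 2 members by DESeq2 against 3.26% of all genes. The median log2 fold change was -0.14 for the mitochondrial subunits (between -0.30 and 0.017 with 1 library left out) and -0.22 for the nuclear rows (between -0.25 and -0.14). SDHD was 0.92 ± 0.12 higher with NEK7 siRNA (SE, DESeq2 adjusted p = 3.53e-09, edgeR adjusted p = 0.259), and COX4I1 had -0.53 ± 0.11 (DESeq2 adjusted p = 0.000116, edgeR adjusted p = 0.34). NDUFB1, an accessory complex I subunit, had -0.75 ± 0.20 (edgeR adjusted p = 0.413, between -1.05 and -0.44 with 1 library left out), and NDUFA7, another accessory subunit, had 0.20 ± 0.17. All 11 nuclear complex IV genes had a negative value in this contrast, with a median of -0.36, and 3 of them were past an unadjusted p of 0.05.

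Of the paralogous subunits, the forms known outside striated muscle and testis carried the RNA. COX6B1 averaged 69.7 FPKM while COX6B2 averaged 0.306 FPKM, COX7A2 averaged 36.1 FPKM while COX7A1 averaged 0.153 FPKM, and COX8A averaged 453 FPKM while COX8C averaged 0.0399 FPKM. COX7A2L, known as a factor that joins complexes III and IV, varied without a pattern shared by the lines, at 5.86, 15.4 and 6.12 FPKM in CFPAC cells after NEK7, NEK6 and control siRNA and 7.80, 7.66 and 20.0 FPKM in KP3 cells. COX6A1 stood at 153, 173 and 182 FPKM in CFPAC cells and 171, 172 and 171 FPKM in KP3 cells, and did not pass between the lines (log2 fold change 0.02 ± 0.10, edgeR adjusted p = 0.852).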

How the data were processed

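RNA sequencing had been done on 6 libraries of 2 cell lines. The authors deposited a table of raw counts and FPKM for each gene, per the file headers. Trimming with cutadapt 1.9, alignment with HISAT2 2.0.4, assembly and quantification with StringTie 1.3.4d and testing with edgeR are named in the submitters' processing notes. No source used here names the genome build, and all 100 rows overlapped their GENCODE v29 (GRCh38) gene on the same chromosome and strand. Rows follow the gene name rule given above. Members, gene lists and tests were chosen with earlier results of these data known.

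Deposited counts were tested with edgeR 4.0.16 in R 4.3.3 (quasi-likelihood, TMM scaling, line and siRNA as additive terms, 2 residual degrees of freedom) over the 14582 genes with at least 1 FPKM in at least 1 library, with Benjamini-Hochberg adjustment over all of them. The authors' FPKM values were used for levels, sums, ratios and within-line differences, the last as log2(FPKM + 1), which understates changes of low genes. The SE given with an edgeR value was calculated as the absolute log2 fold change divided by the square root of the F statistic. Sums were compared by exact permutation tests with scipy 1.17.1. The edgeR and DESeq2 fits were run on simulated counts for NEK7 siRNA against control siRNA and for CFPAC against KP3. The simulated dispersion was below that estimated in these data (0.0685). The other fits and the permutation tests were not run on simulated data. Libraries held 59478910 to 66067379 counts, and precision is limited by having 1 library for each line and siRNA. Alternatives were DESeq2 1.42.0, limma 3.58.1 on log2(FPKM + 1), DESeq2 size factors, other filters, mitochondrial genes left out, no block, each library left out, other units for sums and, added after seeing the data, protein-coding genes alone. Named were the 13 mitochondrial subunits, the 5 highest and 5 lowest nuclear rows of each contrast, called members up to 10 a direction, the 3 most and least abundant nuclear rows, the 3 rows just below the threshold, paralogs and up to 3 genes of each of 10 lists. NDUFS6, ATP5F1B, COX5A, complex II members and other genes outside this rule were named after their values were seen. Mitochondrial subunits under siRNA are described mainly as a group, a choice made after seeing that their signs changed between alternatives. The values of 1 nuclear member are not reported here.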

Additional observations from a re-analysis of the deposited data

Results flagged for a closer look

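Members are given here where an siRNA library differed from the control library by at least 1.2-fold in opposite directions in the 2 lines, as differences in log2(FPKM + 1). With 1 library for each condition none of these differences between lines was tested, and the share of all genes passing this rule was not computed. Opposite directions of any size were found for 35 of 100 members with NEK7 siRNA, against 37.4% of all genes. With NEK6 siRNA they were found for 59 members, against 41.5% of all genes. At the 1.2-fold rule there were 3 members with NEK7 siRNA. COX7C, a small complex IV subunit, stood at -0.56 in CFPAC cells and 0.72 in KP3 cells. UQCRHL, a copy of the complex III hinge gene, stood at -0.39 and 0.29, and the pseudogene row UQCRFS1P1 at 0.98 and -0.42.

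At the same 1.2-fold rule there were 8 members with NEK6 siRNA. COX7A2L stood at 1.205 in CFPAC cells and -1.28 in KP3 cells, and COX7C at -0.27 and 0.80. The accessory complex I subunit NDUFA12 stood at 0.71 and -0.46, and NDUFB9 at 0.62 and -0.35. ATP5ME stood at -0.40 in CFPAC cells and 0.42 in KP3 cells. Among pseudogene rows, UQCRFS1P1 stood at 0.33 and -0.82, COX5BP6 at 0.95 and -0.44, and ATP5MC2P4 at 0.83 and -0.90. The summed FPKM of the mitochondrial subunits with NEK6 siRNA differed from control by -16.8% in CFPAC cells and 12.2% in KP3 cells.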

How the results depend on the processing

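The main fit holds the line as a term, so each siRNA contrast was already paired within line, and the labels give no replicate numbers for another pairing. With DESeq2, 369 genes were called for NEK7 siRNA against control, 288 for NEK6 siRNA against control and 475 for NEK7 against NEK6 siRNA, and 4, 2 and 2 members, where edgeR called 0. With limma the nuclear median was -0.15 for NEK7 against NEK6 siRNA and -0.14 for CFPAC against KP3. With a mean FPKM of at least 5, 4122 genes were called between the lines, since fewer were tested, and the nuclear median was -0.033. Leaving out 1 library gave 28 (without KP3 NEK7 siRNA) to 37 called members between the lines, with 29 without CFPAC NEK7 siRNA, while the calls over all genes lay between 6422 and 6529 (8223 with all 6 libraries). It gave 0 to 1 genes called for NEK7 siRNA against control and against NEK6 siRNA. Over the same fits the nuclear median lay between -0.25 and -0.14 for NEK7 against NEK6 siRNA and between -0.069 and 0.098 for NEK6 siRNA, and the mitochondrial median between -0.34 and -0.022 for NEK7 siRNA, between -0.19 and 0.15 for NEK6 siRNA and between -0.30 and 0.017 for NEK7 against NEK6 siRNA. The summed complex II level lay between -0.075 and 0.12, turning negative without CFPAC NEK7 siRNA and without KP3 NEK6 siRNA. The ratio of mitochondrial to nuclear sums lay between 0.72 and 0.83 on the log2 scale. Between the lines 7 of 12 called mitochondrial subunits and 12 of 15 named nuclear rows passed in every alternative run for them, the nuclear ones including the pseudogene rows ATP5F1AP8 and ATP5F1AP10, whose difference the FPKM threshold partly fixed.

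Signs changed for named rows that passed no test in the siRNA contrasts. For ATP5F1AP10 this gave -0.024 (NEK6 siRNA) and 0.15 (NEK7 against NEK6 siRNA) with no block and 0.025 with limma in the second contrast. With 1 library left out, ranges for NEK7 siRNA were -0.35 to 5.64 for ATP5F1AP10, -1.41 to 0.87 for COX5BP6, -1.69 to 0.30 for COX7A2L and -0.53 to 1.35 for UQCRFS1P1. For NEK6 siRNA they were -0.60 to 2.39 for COX5BP6 and -1.34 to 0.35 for COX5BP7. For NEK7 against NEK6 siRNA they were -2.89 to 0.43 for ATP5F1AP10, -2.90 to 0.087 for COX5BP6, -1.72 to 0.35 for COX7A2L and -0.030 to 0.42 for NDUFA7. Mitochondrial subunits changed sign in at least 1 alternative for 5 of 13 with NEK7 siRNA (sizes up to 0.10), 10 of 13 with NEK6 siRNA (up to 0.23) and 6 of 13 between the siRNAs (up to 0.18). The cause was not tested.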
